A study of Mus musculus with 12 samples.

Results

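Deep intragenic narrow peaks are short stretches of open chromatin that lie inside the span of a protein-coding gene and far from every gene end. A peak was counted here when it lay on an autosome, was under 1500 bases wide, and had its centre within a protein-coding gene span of the mouse GRCm38 annotation (the same build as mm10) and over 20 kb from both ends of every protein-coding gene. The rule used position and width and no measured level, and it selected 47448 of 222105 peaks (21.4%). Of these, 42968 (90.6%) passed the filter on low counts and were tested, and 4480 did not pass.

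Accessibility was measured by ATAC-seq, in which a transposase cuts open chromatin and the resulting fragments are counted by position, in 12 libraries of mouse T cells in 4 groups of n = 3. Naive CD4+ T cells had been cultured towards homeostatic Th17 cells, an IL-17-producing helper T cell state, and 6000 sorted cells were used per library. The wild-type groups (WT, C57/B6) and the groups whose glucocorticoid receptor was conditionally knocked out (GR cKO, C57/B6) were each kept without drug (control) or with dexamethasone (Dex), a synthetic agonist of that receptor, for 2 days. The Cre line, the deleted part of the allele and whether the 3 libraries of a group were separate animals or cultures were not given in the sources used here.

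Chromatin opens where transcription factors and remodelling complexes displace nucleosomes, and outside promoters such sites are often enhancers, which can act on the gene that holds them or on another gene along the chromosome. The glucocorticoid receptor is a ligand-activated transcription factor that binds DNA mostly away from promoters, at glucocorticoid response elements or together with factors such as AP-1. Long genes carry many such sites in their introns. A peak is named below by the gene that holds it, which is a statement of position and not of the gene it acts on, and the gene table used gives spans only, so exons, introns and untranslated regions are not told apart.

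Some of these peaks hold an annotated transcript start well inside the host gene, and for these the RefSeq promoter windows (GRCm38.p6) give the sequence. The following stretches cover 250 bases before 4 such starts, 5′ to 3′ on the strand of the transcript, in lower case with any AP-1 motif TGANTCA in capitals. They show an internal start that rose with Dex in WT (in Pard3, start of the non-coding RNA LOC115486907, chr8:127441286-127441535, minus strand), the internal start at the highest level (Cast, chr13:74770737-74770986, minus strand), and a pair of strong starts with an AP-1 match (Smim14, chr5:65484062-65484311, minus strand, and the non-coding RNA Gm11714 within Pitpnc1, chr11:107428000-107428249, plus strand).
Pard3: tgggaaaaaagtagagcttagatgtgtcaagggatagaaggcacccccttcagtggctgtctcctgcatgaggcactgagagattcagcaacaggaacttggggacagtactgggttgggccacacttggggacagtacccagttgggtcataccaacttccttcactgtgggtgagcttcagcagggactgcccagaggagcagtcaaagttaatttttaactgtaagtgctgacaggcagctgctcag
Cast: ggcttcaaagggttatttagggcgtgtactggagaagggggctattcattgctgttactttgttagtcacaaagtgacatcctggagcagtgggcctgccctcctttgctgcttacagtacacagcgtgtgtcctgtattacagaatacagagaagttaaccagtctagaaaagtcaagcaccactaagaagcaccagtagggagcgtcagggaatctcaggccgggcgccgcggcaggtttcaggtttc
Smim14: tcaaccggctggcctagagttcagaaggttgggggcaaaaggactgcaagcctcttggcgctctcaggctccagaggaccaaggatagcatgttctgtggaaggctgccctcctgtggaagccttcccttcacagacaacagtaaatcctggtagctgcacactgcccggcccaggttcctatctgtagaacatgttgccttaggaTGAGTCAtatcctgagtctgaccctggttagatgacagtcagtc
Pitpnc1: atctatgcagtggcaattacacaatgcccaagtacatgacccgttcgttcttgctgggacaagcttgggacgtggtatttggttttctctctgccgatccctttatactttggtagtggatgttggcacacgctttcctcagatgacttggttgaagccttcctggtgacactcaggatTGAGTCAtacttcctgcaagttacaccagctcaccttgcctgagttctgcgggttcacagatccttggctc

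The Pard3 peak, in the gene of a cell polarity scaffold, measured 15.9, 21.4 and 16.7 CPM (normalised read counts) in WT control and 26.6, 31.4 and 26.8 CPM in WT with Dex. In cKO it measured 17.7, 25.0 and 20.1 CPM in control and 19.7, 26.2 and 21.6 CPM in Dex, so that every WT Dex library lay above the other 9. The log2 change with Dex was 0.65 ± 0.13 (SE, n = 3 per group) in WT (adjusted p = 0.00234, edgeR's quasi-likelihood test with Benjamini-Hochberg adjustment) and 0.10 ± 0.13 in cKO. This WT call was lost without WT control replicate 3 (adjusted p = 0.0705) or without WT Dex replicate 2.

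Cast, which encodes the calpain inhibitor calpastatin, held the strongest of all deep intragenic narrow peaks. It averaged 110.8 CPM over the 12 libraries, with 104, 118 and 106 CPM in WT without Dex and 140, 123 and 109 CPM in WT with Dex, and the groups overlapped. The peaks at the Smim14 and Gm11714 starts averaged 43.7 and 32.4 CPM, with log2 changes in WT of 0.11 ± 0.10 and 0.06 ± 0.11.

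Outside chromosome 18, for which no windows were used, 353 of 45767 peaks (0.771%) held an annotated start, 221 of them a start of the host gene itself and 132 a start of a non-coding RNA. Peaks that held a start were stronger than the rest. Those at a start of the host gene had a median of 4.99 CPM over 219 tested peaks and those at a non-coding start 2.86 CPM over 125, against 1.13 CPM where no start was annotated. None of the 219 host-gene starts passed the test for Dex in WT with edgeR, nor any of the 179 to which DESeq2 gave an adjusted p. With 0.534% of all tested peaks called, a count of 0 among 219 is near the background, and 18 of them (8.22%) had an unadjusted p under 0.05, against 8.91% of all deep intragenic narrow peaks. Of the 125 non-coding starts 2 rose. A total of 197 RefSeq windows of 300 bases lay wholly within a deep intragenic peak and were read on both strands. The AP-1 motif TGANTCA was present in 31 of them (15.7%), against 7.81% of all 32817 RefSeq start windows used. The STAT motif TTCNNNGAA was present in 6.60% against 8.29%, the CTCF core (CCANNAG followed directly by NNGGC) in 4.57% against 2.43%, and the glucocorticoid response element (GNACA and TGTNC with any 3 bases between) in 0 of 197 against 0.475%. At that share a count of 0 among 197 is near the background. Median GC content was 54.7% in the internal windows and 52.7% in all. The internal windows were chosen to lie in open chromatin of these cells and the full set was not. The part of this choice in the motif shares was not tested. A further 13 peaks overlapped a microRNA hairpin, among them those of Mir199a-2 in Dnm3 and Mir491 in Focad, and none of the 13 was called with edgeR, nor any of the 9 with an adjusted p in DESeq2 (1 had an unadjusted p under 0.05). The centres of 2769 peaks (5.84%) lay in the span of a long non-coding RNA.

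Deep intragenic narrow peaks were mostly weak. Their median level was 1.14 CPM, against 1.25 CPM over all tested peaks, 1.11 CPM for narrow peaks between genes over 20 kb from any gene end, 2.08 CPM for narrow peaks within 1 kb of a gene end and 24.3 CPM for the 1149 broad peaks (1500 bases or more) at the same deep positions. Over 10 CPM stood 3126 of them (7.28%), against 12.3% of all tested peaks, and 19460 (45.3%) were under 1 CPM. Their median width was 322 bases, and the median biological coefficient of variation, the spread between replicates beyond counting error, was 26.0%, against 24.8% over all peaks and 9.32% for the broad deep peaks. In width and level they lay close to the narrow intergenic peaks, whose median width was 317 bases. Peaks up to 100 bases under the width limit (281 tested) had a median of 15.0 CPM, and deep peaks up to 100 bases over it (182 tested) had 19.2 CPM. Narrow peaks 20 to 21 kb from a gene end had 1.17 CPM and those 19 to 20 kb away 1.11 CPM.

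They held a steady part of each library. The share of all counts that fell in them was 13.64% ± 0.165 (SD, n = 3) in the untreated WT group, 13.38% ± 0.225 in the WT group with Dex, 14.21% ± 0.0764 in the untreated cKO group and 14.02% ± 0.141 in the cKO group with Dex. The ranges of the genotypes did not overlap, with 13.2 to 13.8% over the WT libraries and 13.9 to 14.3% over the cKO libraries. The share of counts in the strongest 10% of tested peaks moved the other way, at 60.6 to 63.5% in WT and 57.9 to 61.6% in cKO, and its part in the genotype difference of this share was not tested. Library totals ran from 12988437 to 25081591 counts.

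The labelled cell type was checked against markers fixed for it. Summed over all peaks in or within 1 kb of each gene, 13 T cell markers gave 1023 to 1193 CPM in every library, with Ccr6 at a mean of 121 CPM, Cd4 at 89.6 CPM and Il17a at 6.72 CPM. Markers of B cells summed to 413 to 466 CPM over 11 genes, of which Ebf1 gave 262 CPM and Ms4a1 was at 0. Myeloid markers summed to 183 to 205 CPM over 11 genes, from Lyz2 at 0.884 CPM to Spi1 at 40.5 CPM. CD8 T and NK markers summed to 75.1 to 95.1 CPM over 10 genes. Of these, Ncr1 and Klrb1c were at 0 and Cd8a at 0.512 CPM, but Gzmb was at 22.3, Prf1 at 17.2 and Cd8b1 at 14.1 CPM. The T cell, B cell and CD8 T and NK sums overlapped between the groups. The myeloid sum overlapped between WT Dex and cKO control and between cKO Dex and WT control, but not between treatments of a genotype or genotypes of a treatment. It was 183 to 194 CPM in WT without Dex and 197 to 199 CPM in WT with Dex, but went the other way in cKO, from 195 to 205 CPM without Dex to 190 to 192 CPM with Dex. The genotypes thus stood apart both without and with Dex, in opposite order. Without Dex the gap was narrow, with at most 194.3 CPM in WT and at least 195.2 CPM in cKO. The part of this sum in the Dex and genotype differences was not tested. Bulk counts cannot tell fewer cells with an open site from less opening per cell, which holds for every difference below.

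The targeted gene, Nr3c1, held 15 deep intragenic narrow peaks, 14 of them tested. Its peak with the smallest p for Dex in WT, chr18:39457699-39458289, measured 3.36, 3.65 and 5.24 CPM in WT without Dex, 2.77, 2.62 and 3.12 CPM in WT with Dex, 4.26, 4.49 and 4.13 CPM in cKO without Dex and 4.27, 4.05 and 4.38 CPM in cKO with Dex. None of the 14 was called for Dex in WT (smallest adjusted p = 0.393, edgeR's quasi-likelihood test). Their median log2 change in WT was 0.32, a rise where this peak fell. At this peak the genotypes overlapped without Dex, and with Dex every WT library lay below every cKO library. The WT Dex libraries took part in choosing the peak, so this gap is partly selected. Since the deleted part of the allele is not given, the position checks no label.

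The peaks were unevenly spread over genes. They fell in 4164 of the 5599 genes that are long enough to have a deep interior, with a median of 6 per host gene. The median gap between adjacent tested peaks of a host was 2.71 kb. In 668 hosts there was only 1, and 136 hosts held over 50. Foxp1, a transcription factor of lymphocyte quiescence, held the most tested ones (199 peaks, 186 tested), followed by Rora (164, 148 tested), a nuclear receptor of Th17 cells, Inpp4b (146, 133 tested), a phosphoinositide phosphatase, Wwox (149, 132 tested) and the Notch coactivator Maml2 (134, 123 tested). Levels within a host varied widely: in Foxp1 the median was 1.53 CPM and the highest 80.4 CPM.

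Density, the number of peaks per 100 kb of deep gene interior, set lymphocyte genes and neural genes far apart. It was 8.50 over all genes, 30.6 over the listed lymphocyte transcription factor genes, of which 33 of 40 held such a peak, 23.6 over T cell receptor signalling genes, 27.6 over cytokine and TGF-beta receptor and kinase genes and 48.1 over apoptosis and survival genes. Density was 14.5 over the B cell marker genes and 6.31 over the myeloid marker genes. Ikzf1, which encodes the lymphoid factor Ikaros, stood at 83.4 with 40 peaks and the T cell chromatin organiser Satb1 at 70.1. By contrast, 26 long neural and adhesion genes together held 132 peaks, a density of 0.369. In 11 of these 26 no peak was found, including Lrp1b, Csmd1, Ptprd and Lsamp, although their deep interiors measured from 659 to 2230 kb. Dlg2, which encodes a synaptic scaffold, was the densest of them at 2.33. Peaks found jointly in a set of T cell libraries are the only ones counted, and the lists were chosen with these data known, so the densities are a description without a test.

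**Figure D1:**
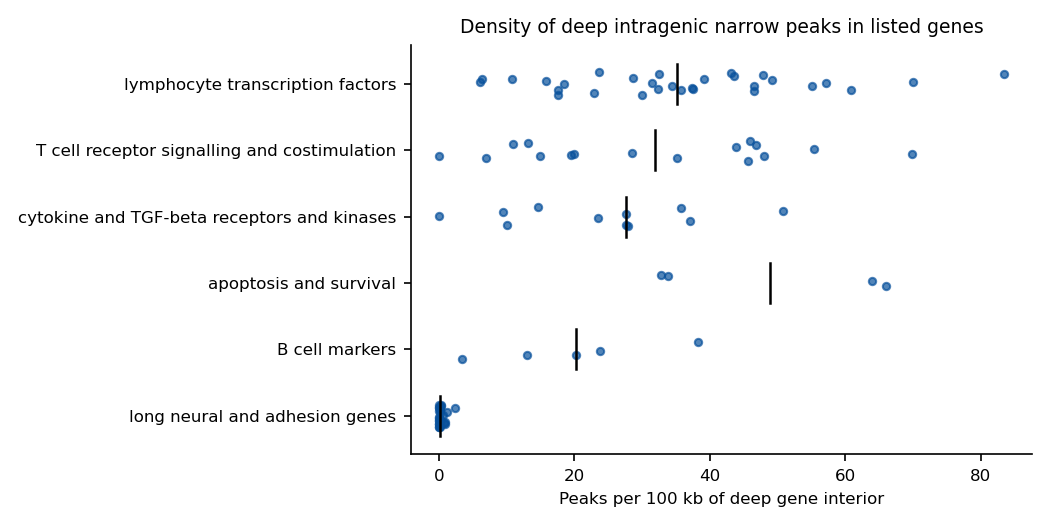
Peaks per 100 kb of deep gene interior, 1 point per gene with at least 20 kb of deep interior, by gene list, with the list median as a vertical line. The lymphocyte transcription factors have a median of 35.1 and reach 83.4 at Ikzf1, while no long neural or adhesion gene exceeds 2.33.

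The first comparison asked where Dex changed these sites in wild-type cells. Of 42968 tested peaks, 203 rose and 66 fell (269 called, adjusted p under 0.05, edgeR's quasi-likelihood test with Benjamini-Hochberg adjustment over all 202587 tested peaks). This is 0.626%, against a background of 0.534% of all tested peaks, with 0.42% of all peaks higher and 0.114% lower. DESeq2 called 326 of the 17239 to which it gave an adjusted p (1.89%), against a background of 1.49%. A change of at least 2-fold was seen at 112 of the 269. Deep intragenic narrow peaks made up 24.9% of all calls in this contrast and 21.2% of all tested peaks. The call share was 0.711% for narrow intergenic peaks, 0.214% for narrow peaks at gene ends and 2.35% for the broad deep peaks, of which 27 rose and 0 fell.

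The count of calls rested in part on single libraries and on scaling. It was 137 without WT Dex replicate 1, 158 without WT Dex replicate 2, 151 without WT control replicate 2 and 158 without WT control replicate 3. Risen peaks were 75.5% of calls here, 55.8% when counts were scaled by library totals alone, 60.1% with loess offsets and 44.7% with the share of counts in the strongest peaks as a covariate.

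Calls were rare at weak peaks. Under 1 CPM, 0.0565% of deep intragenic narrow peaks were called, at 2 to 5 CPM 1.02%, at 10 to 20 CPM 2.78%, at 20 to 50 CPM 2.46% and over 50 CPM 4.12% (4 of 97). Over all tested peaks the shares in the same classes were 0.0499%, 0.772%, 2.07%, 1.61% and 1.26%, so that above 10 CPM the share no longer rose with level. Over 10 CPM 2.72% of deep intragenic narrow peaks were called, against 1.80% of all tested peaks, but this was not particular to them: the share was 3.38% for narrow intergenic peaks, 2.56% for broad deep peaks and 0.263% for narrow peaks at gene ends. Weak peaks carry few reads, which limits what can be called there.

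**Figure D2:**
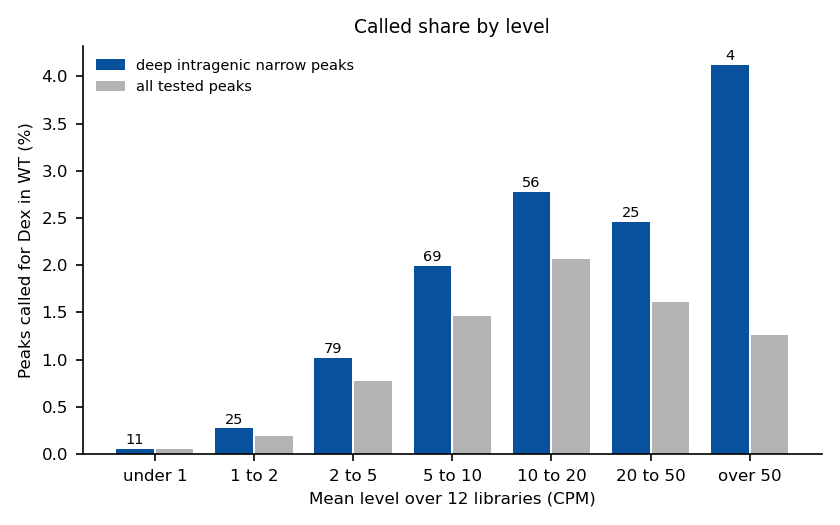
Share of tested peaks called for Dex in WT (%, vertical axis) by mean level over the 12 libraries (CPM, horizontal axis), for deep intragenic narrow peaks and for all tested peaks, with the number of called deep intragenic narrow peaks above its bar. In each level class the bar of the deep intragenic narrow peaks is the taller, and the 97 peaks over 50 CPM gave 4 calls.

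The risen peaks were already open in part before Dex. Their median level was 4.79 CPM in WT without Dex and 9.46 CPM in WT with Dex, and 22 of the 203 were under 1 CPM in WT without Dex. The median over the 66 fallen peaks went from 5.86 to 3.05 CPM. Median log2 changes were 0.92 and -0.94, values that the call itself selected, and the median over all tested deep intragenic narrow peaks was -0.03. Called peaks were wider than the rest, with a median width of 727 bases where risen and 540 where fallen, against 348 over all that were tested. Width went with level, with a median of 916 bases over 10 CPM and 243 under 1 CPM, where calls were rare. Widths were not compared at equal level. Where the host's strand was known, 42.1% of the risen and 52.6% of the fallen peaks lay on the 5′ side of the gene's midpoint, against 51.1% over all.

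The smallest p belonged to a peak in Neb (chr2:52304449-52305279), the gene of the muscle thin-filament protein nebulin. It measured 0.915, 0.788 and 0.907 CPM in WT without Dex and 9.27, 7.81 and 7.03 CPM in WT with Dex. In cKO it measured 0.840, 1.15 and 0.839 CPM in control and 2.11, 2.97 and 2.96 CPM in Dex. The site was thus nearly closed in both control groups, and open most in WT Dex and less in cKO Dex, without overlap between any of these 3 levels. In WT the log2 change was 3.20 ± 0.25 (adjusted p = 1.69e-14, edgeR's quasi-likelihood test, n = 3 per group).

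A peak in Cab39l (chr14:59506209-59506541), the gene of a scaffold of the kinase LKB1, had the largest change among the leading peaks. It measured 1.22, 0.788 and 0.330 CPM in WT without Dex and 11.2, 6.75 and 7.77 CPM in WT with Dex, a log2 change of 3.57 ± 0.30 (adjusted p = 6.53e-13, edgeR). In cKO it stayed low, at 1.26, 0.835 and 1.55 CPM in control and 1.38, 0.862 and 1.58 CPM in Dex.

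Sae1 encodes a subunit of the SUMO-activating enzyme, and its peak (chr7:16364110-16364732) lies 46.1 kb from Bbc3, the gene of the pro-apoptotic protein PUMA, and 35.2 kb from Zc3h4. It measured 7.55, 10.0 and 9.98 CPM in WT without Dex, 31.4, 28.3 and 28.1 CPM in WT with Dex, 8.64, 7.15 and 7.55 CPM in cKO without Dex and 11.2, 13.2 and 13.3 CPM in cKO with Dex. Every WT Dex library was more than 2-fold above every other library. The log2 change in WT was 1.66 ± 0.13 (adjusted p = 1.70e-14, edgeR).

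Peaks in Ift80, Maml3 and Fam193a were stronger in WT without Dex than those in Neb, Cab39l and Sae1. Their log2 changes were smaller and their rises in CPM larger. The choice by smallest p favours large log2 changes at weak peaks, so this order is partly selected. In Ift80, the gene of an intraflagellar transport protein, the peak chr3:68968621-68969931 measured 13.1, 12.3 and 11.3 CPM in WT without Dex and 36.7, 35.1 and 28.4 CPM in WT with Dex, a log2 change of 1.45 ± 0.12. Maml3, a Notch coactivator, had 34.4, 34.3 and 34.6 CPM in WT without Dex and 73.6, 66.2 and 68.0 CPM in WT with Dex at chr3:51744314-51745721, a log2 change of 1.01 ± 0.10. For both genes the lowest WT Dex library lay far above the highest control library. In Fam193a (chr5:34430302-34431365) the values were 47.3, 44.2 and 46.0 CPM and 96.5, 86.7 and 84.6 CPM, a log2 change of 0.96 ± 0.10. The other leading risen peaks lay in Myo16, the gene of an unconventional myosin (1.36), Mkln1, which encodes muskelin (0.98), Bcas3 (2.77) and Rsu1, a protein of integrin adhesions (2.26), all log2 changes in WT.

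The fallen peaks changed by about as much, and 29 of the 66 by at least 2-fold, against 83 of the 203 risen. Sorcs2, a sorting receptor gene, held the one with the smallest p (chr5:36113597-36114391), with 5.64, 4.93 and 6.10 CPM in WT without Dex and 1.95, 2.51 and 2.67 CPM in WT with Dex, a log2 change of -1.22 ± 0.20 (adjusted p = 0.000114, edgeR's quasi-likelihood test). Its levels in cKO were 6.36, 5.90 and 5.94 CPM in control and 5.25, 5.08 and 4.12 CPM in Dex. At Capzb (chr4:139213779-139214884), the gene of an actin capping subunit, the values were 14.8, 16.3 and 13.5 CPM in WT without Dex and 8.38, 8.87 and 8.22 CPM in WT with Dex. The 2 groups stood clearly apart, with a log2 change of -0.80 ± 0.14. The peak in Cd47 (chr16:49892013-49892614), the ligand that restrains phagocytes, had 5.64, 5.17 and 6.02 CPM in WT without Dex and 2.90, 2.85 and 2.38 CPM in WT with Dex, a log2 change of -1.05 ± 0.20. Peaks in St3gal3, a sialyltransferase gene (-0.95), Atp2c1, a Golgi calcium pump gene (-0.82), Zfyve28 (-1.44) and Vwa8 (-0.88) also fell, as did those in Zfp469 (-1.06) and Smap2 (-0.95). The Zfp469 call was lost without WT control replicate 3 (adjusted p = 0.0858) or WT Dex replicate 1, and the Smap2 call without WT Dex replicate 2 (adjusted p = 0.0616).

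**Figure D3:**
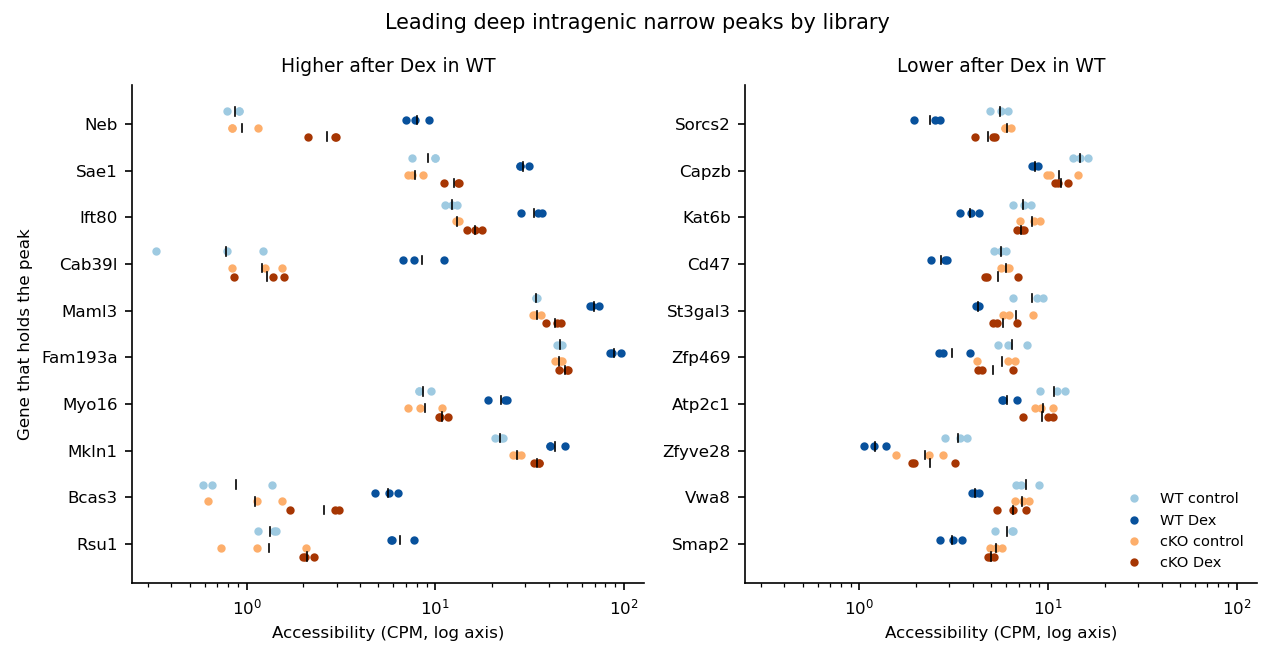
Accessibility (CPM, log axis) in each of the 12 libraries at the 10 risen and the 10 fallen peaks with the smallest p for Dex in WT, 1 point per library and a short line at each group mean. WT Dex stands apart from WT control in every row, and the cKO Dex points of Cab39l lie among the cKO control points.

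Some host genes held several called peaks. The 269 called peaks lay in 210 genes, and 35 genes held 2 or more, 95 calls in all. In 30 of these 35 genes all called peaks moved one way. As 75.5% of all calls were rises, a shared direction is common by that share alone, and the agreement was not tested. Bcas3 held 8 called peaks among 77 tested, spread over 188 kb and all risen, from 0.68 to 2.86 on the log2 scale. Of its 77 peaks, 60 had a positive log2 change in WT and 52 in cKO, and the median over the uncalled ones in WT was 0.36. Tnr, which encodes tenascin-R, a matrix protein of the nervous system, held 7 of 51 over 151 kb, and Dthd1, which encodes a death-domain protein, 6 of 11 over 20.4 kb. The guanine exchange factor gene Dock10 held 4 of 52 over 135 kb and Mfhas1 4 of 28 over 22.8 kb. All these called peaks rose.

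Within Tnr the strongest response in level was at chr1:159889106-159889987, with 13.9, 14.4 and 14.9 CPM in WT without Dex and 32.4, 26.2 and 24.0 CPM in WT with Dex, against 12.2, 9.08 and 10.4 CPM in cKO without Dex and 15.6, 13.0 and 10.8 CPM in cKO with Dex. In Dthd1 the most open peak (chr5:62857898-62858920) measured 63.5, 66.0 and 60.6 CPM in WT without Dex and 98.2, 94.5 and 88.1 CPM in WT with Dex, and in cKO 57.2, 64.3 and 55.9 CPM in control and 66.7, 62.1 and 63.2 CPM in Dex. At both sites every WT Dex library was above all the others. All 11 tested Dthd1 peaks had a positive log2 change in WT, and 8 of 11 in cKO. Weaker calls in these genes depended on single libraries: 5 of the 7 in Tnr, 3 of the 4 in Dock10, 3 of the 6 in Dthd1, 2 of the 8 in Bcas3 and 1 of the 4 in Mfhas1 were lost in at least 1 of the 12 fits that each left out a library.

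**Figure D4:**
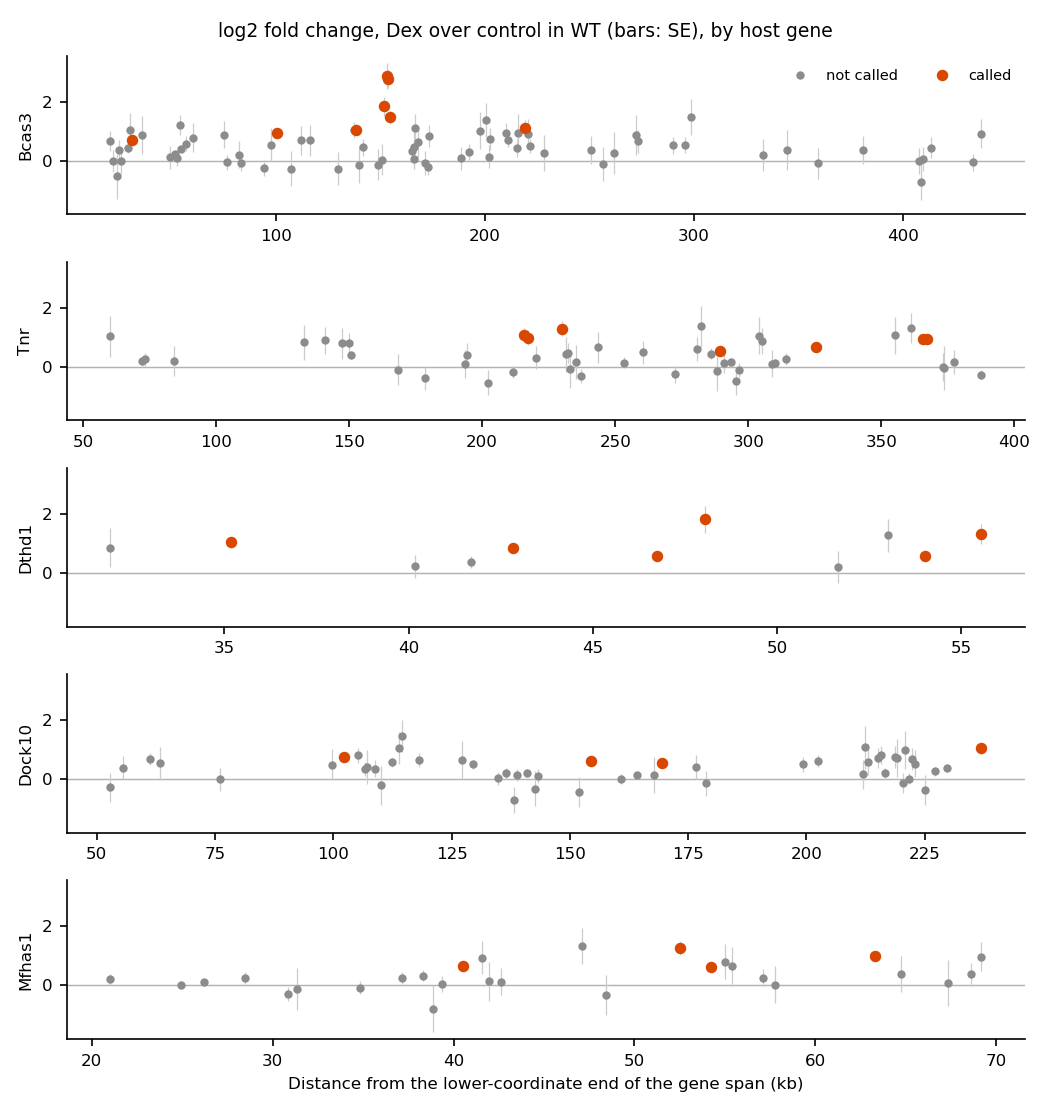
Log2 change with Dex in WT (vertical axis, bars are SE) of each tested deep intragenic narrow peak against its distance from the lower-coordinate end of the gene span (kb), for the 5 genes with the most called peaks. Called peaks are coloured; in Bcas3 a tight group of the largest changes lies about 155 kb along the gene, and all 11 peaks of Dthd1 are above 0.

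Neighbouring peaks of a host moved together weakly. Over 7222 pairs of adjacent peaks less than 1 kb apart, Pearson's r of the WT log2 changes was 0.113, and over 3831 pairs 10 to 20 kb apart it was 0.0557. Where both peaks of a pair exceeded 5 CPM, r was 0.339 over 120 pairs under 1 kb apart, 0.326 over 444 pairs 1 to 2 kb apart, 0.340 over 328 pairs 2 to 5 kb apart, 0.223 over 154 pairs 5 to 10 kb apart and 0.419 over 58 pairs 10 to 20 kb apart, with no steady decline over distance. In cKO the corresponding r values of these strong pairs were -0.0476, 0.0713, 0.0676, 0.0994 and 0.0228. Over all pairs cKO was not lower, with 0.103 under 1 kb apart and 0.0806 at 10 to 20 kb. All 16 adjacent pairs in which both peaks were called had the same direction, where 75.5% of all calls were rises. Pairs share the 6 libraries of each contrast, depth and scaling, so these correlations across peaks are descriptions.

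Gene lists were then read through the deep intragenic narrow peaks of their genes, for which 0.626% called and a median log2 change of -0.03 in WT are the values over all. Of 28 listed glucocorticoid response genes, 9 held such a peak, and 2 of 130 tested peaks rose and 0 fell (1.54%, median 0.03). Lymphocyte transcription factors had 2 risen and 2 fallen among 1237 (0.323%, median -0.03), and T cell receptor signalling and costimulation genes 2 risen and 1 fallen among 510 (0.588%, median -0.01). Cytokine and TGF-beta receptors and kinases had 2 risen among 157 (1.27%, median -0.0035). Apoptosis and survival genes had 8 risen and 0 fallen among 147 (5.44%, median 0.07), 6 of them in Dthd1 and 2 in Bcl2. That share rests mostly on Dthd1, with 6 of 11 tested peaks called. The lists were chosen with earlier results of these data known, so all these shares are descriptions without a test. None of the 119 tested peaks of the long neural genes was called with edgeR, nor any of the 39 with an adjusted p in DESeq2, and 5 of them had an unadjusted p under 0.05.

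Zbtb16, a zinc-finger factor known as a glucocorticoid-induced gene, rose at chr9:48740217-48740674, 65.8 kb from its nearest gene end. The values were 2.14, 1.48 and 1.48 CPM in WT without Dex, 5.04, 4.91 and 5.16 CPM in WT with Dex, 2.34, 2.04 and 1.42 CPM in cKO without Dex and 2.64, 1.81 and 2.43 CPM in cKO with Dex. Only the WT Dex group was raised, with a log2 change of 1.60 ± 0.25 (adjusted p = 2.91e-05, edgeR's quasi-likelihood test). Pik3r1, which encodes the regulatory subunit of PI3 kinase, rose at chr13:101719216-101719966 from 4.12, 4.14 and 4.45 CPM in WT without Dex to 8.76, 6.70 and 7.66 CPM in WT with Dex, a log2 change of 0.85 ± 0.18. That call was lost without WT Dex replicate 1 (adjusted p = 0.115) or WT control replicate 2.

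Fkbp5, a receptor co-chaperone gene and a common marker of glucocorticoid action, held 18 deep intragenic narrow peaks, 17 of them tested, and none was called for Dex in WT with edgeR, nor any of the 7 with an adjusted p in DESeq2 (2 had an unadjusted p under 0.05). The one with the smallest p, chr17:28428531-28428750, measured 0, 0.394 and 0.165 CPM in WT without Dex and 0.630, 0.558 and 0.907 CPM in WT with Dex (adjusted p = 0.373, edgeR). Another Fkbp5 peak, chr17:28431937-28432819, differed by genotype, with 11.7 to 13.6 CPM over the 6 WT libraries and 16.2 to 18.5 CPM over the 6 cKO libraries. It was called only under Dex (cKO over WT, log2 0.54 ± 0.12, adjusted p = 0.0343, edgeR) and not in control (adjusted p = 0.404), and leaving out cKO Dex replicate 1 gave 0.242.

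Among the lymphocyte factors, a Foxp1 peak (chr6:98992498-98993624) rose from 19.9, 23.6 and 20.1 CPM in WT without Dex to 33.8, 38.3 and 32.5 CPM in WT with Dex, and stood at 18.7 to 20.8 CPM in cKO without Dex and 19.1 to 24.3 CPM in cKO with Dex. It was 1 of 186 tested peaks in that gene and the only one called. A peak in Kat6b, a histone acetyltransferase gene (chr14:21540390-21540910), fell from 6.56, 8.13 and 7.42 CPM to 3.40, 4.30 and 3.91 CPM, a log2 change of -0.93 ± 0.17. In Bcl2, the gene of the survival protein, the stronger of the 2 risen peaks (chr1:106606276-106607441) went from 18.2, 18.4 and 21.1 CPM to 32.7, 29.5 and 27.6 CPM, a log2 change of 0.63 ± 0.11. These 3 calls and that of Zbtb16 were kept in all 12 fits that left out a library.

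The remaining list calls were less stable. Fli1 (0.65), Cblb (0.58), Inpp4b (1.06), Jak1 (0.80) and Tgfbr3 (0.64) each held 1 risen peak, and Runx2 (-1.34) and Fyn (-0.93) each 1 fallen peak, all log2 changes in WT. Cblb encodes a ubiquitin ligase that restrains T cell activation, and Fyn a kinase of T cell receptor signalling. Without WT Dex replicate 1 none of these 7 was called, with an adjusted p of 0.26 for Fli1 and 0.226 for Cblb in edgeR, and other single WT libraries removed most of them too. In Ikzf1, Rora, Runx1 and Tox no peak was called for Dex in WT. Of these, the Rora peak with the smallest p (chr9:69165161-69166127) measured 11.7, 10.0 and 9.15 CPM in WT without Dex and 7.37, 6.53 and 6.97 CPM in WT with Dex, with an adjusted p of 0.0892 in edgeR. The Tox peak with the smallest p (chr4:6934234-6935634) measured 7.02, 8.18 and 7.88 CPM in WT without Dex and 11.1, 9.71 and 11.3 CPM in WT with Dex (adjusted p = 0.240, edgeR). At both the WT groups stood apart, although neither peak was called. In Runx1 (chr16:92716066-92716443) the values were 1.98 to 3.25 CPM and 0.725 to 2.27 CPM (adjusted p = 0.294, edgeR), and in Ikzf1 (chr11:11741575-11741969) 4.27, 5.32 and 5.73 CPM and 6.49, 7.64 and 5.50 CPM (adjusted p = 0.634, edgeR). In these last genes the WT groups overlapped. Of the B cell markers, a peak in Bank1 (1.03) rose and a peak in Ebf1 (-0.49) fell, and each call was lost without WT Dex replicate 2 (adjusted p = 0.334 and 0.339 in edgeR).

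At the 5 strongest deep intragenic narrow peaks the changes with Dex were small. Besides Cast, these lay in Lekr1 (107 CPM on average), Hdac4, a histone deacetylase gene (100.1 CPM), Arhgap17 (92.4 CPM) and Nfia (91.7 CPM), a transcription factor gene. The Nfia peak rose from 84.1, 90.5 and 80.0 CPM in WT without Dex to 114, 109 and 105 CPM in WT with Dex, with no overlap, a log2 change of 0.36 ± 0.09 (adjusted p = 0.0469, edgeR), and the call was lost without WT control replicate 3 (adjusted p = 0.362) and in 7 other fits that left out 1 library. At Arhgap17 the change was 0.36 ± 0.09 (adjusted p = 0.0567, edgeR).

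The second comparison asked what Dex did in the cKO groups, in which loss of the receptor was not checked here. In cKO 1 deep intragenic narrow peak was called of 42968 (0.00233%), against a background of 0.00296% of all tested peaks. An unadjusted p under 0.05 was found at 2329 (5.42%), below the 5.84% of all tested peaks. DESeq2 called 3 of the 18999 to which it gave an adjusted p (0.0158%), against 0.0104% over all peaks. The peak called with edgeR was that of Neb, with a log2 change of 1.48 ± 0.27 (adjusted p = 0.0319, edgeR), and its call was lost in 7 of the 12 fits that left out a library, with an adjusted p of 0.631 without cKO control replicate 1. The count was 43, of which 34 fell, without cKO Dex replicate 3.

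At the 203 peaks that rose in WT, the median level in cKO was 5.46 CPM in control and 6.17 CPM in Dex, a median log2 change of 0.21, and 184 of them (90.6%) were positive. At the 66 that fell in WT, the cKO median was 5.40 CPM in control and 4.90 CPM in Dex, a median log2 change of -0.07, and 44 (66.7%) were negative. The level of a peak bears on these shares: over all tested deep intragenic narrow peaks 48.5% were positive in cKO, but over the 3126 above 10 CPM it was 79.0%, with a median of 0.08. The share of counts in the strongest 10% of peaks, 57.9 to 60.3% in cKO control and 58.1 to 61.6% in cKO Dex, moved the same way as these small positive values, and its part in them was not tested.

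The difference of the Dex effects between genotypes was called at 12 deep intragenic narrow peaks (0.0279%), all with the larger rise in WT. The background was 0.0276% of all tested peaks, where 55 of 56 calls had a positive difference, WT minus cKO. These were the peaks in Cab39l, Ift80, Fam193a, Nme7, Me1, Thada, Myo16, Lrp12, Sae1, Lrrc49, Col23a1 and Maml3. At Nme7 (chr1:164405325-164405802), the gene of a nucleoside diphosphate kinase family member of cilia and centrosomes, values were 1.22, 0.739 and 0.742 CPM in WT without Dex and 6.49, 4.97 and 4.25 CPM in WT with Dex. In cKO they were 1.32, 0.574 and 1.29 CPM in control and 0.813, 0.689 and 1.27 CPM in Dex, so that only WT Dex was raised. The difference of the log2 effects was 2.78 ± 0.48 at Nme7 (adjusted p = 0.00199) and 3.49 ± 0.46 at Cab39l (adjusted p = 1.58e-05, edgeR's quasi-likelihood test).

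At Me1, the gene of cytosolic malic enzyme (chr9:86617554-86618407), values were 6.79, 4.93 and 7.34 CPM in WT without Dex and 17.6, 14.4 and 13.8 CPM in WT with Dex, against 9.18, 6.52 and 8.97 CPM in cKO without Dex and 9.68, 8.06 and 8.40 CPM in cKO with Dex. The cKO groups overlapped and the WT groups did not. The calls at Cab39l, Ift80, Fam193a and Nme7 were kept under all 19 alternatives tried. The number called was 4 without WT Dex replicate 1 or cKO control replicate 3, 6 without WT control replicate 3, cKO control replicate 1 or cKO Dex replicate 1, and 30 without cKO Dex replicate 3. The Neb peak, which rose in both genotypes, differed by 1.72 ± 0.39 on the log2 scale between them and was not called (adjusted p = 0.108, edgeR).

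**Figure D5:**
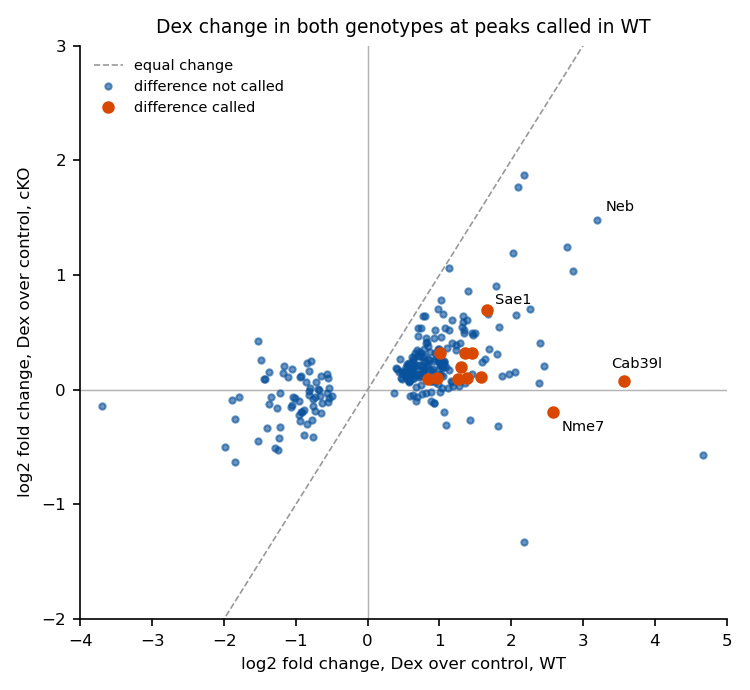
Log2 change with Dex in cKO (vertical axis) against that in WT (horizontal axis) at the 269 deep intragenic narrow peaks called for Dex in WT, with the 12 whose difference between genotypes was called drawn larger. The risen peaks lie below the dashed line of equal change and mostly just above 0 in cKO. Labelled among them are Neb, at 1.48 in cKO, and Nme7, at -0.20. They reach from -1.33 at Mylk to 1.87 at Fanci, the latter near its WT change of 2.17. The libraries that chose the peaks are those of the horizontal axis.

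Without Dex, the knockout differed from WT at 1 deep intragenic narrow peak (0.00233%), against a background of 0.0104% of all tested peaks. An unadjusted p under 0.05 was found at 2674 (6.22%), below the 7.69% of all tested peaks. DESeq2 called 12 of the 1297 to which it gave an adjusted p (0.925%), against 2.64% of 14057 over all peaks. The peak called with edgeR lies in Chrna9, the gene of a nicotinic acetylcholine receptor subunit (chr5:65955246-65956339), 20.9 kb from the nearest gene end. It measured 36.2, 39.3 and 36.2 CPM in WT without Dex and 41.2, 42.1 and 38.8 CPM in WT with Dex. In cKO it measured 16.3, 21.8 and 17.7 CPM in control and 20.2, 21.2 and 14.3 CPM in Dex. Every cKO library was below every WT library, while control and Dex overlapped within each genotype (log2 change with Dex 0.13 ± 0.12 in WT and -0.01 ± 0.12 in cKO). The log2 difference, cKO over WT, was -0.996 ± 0.12 in control (adjusted p = 5.89e-07) and -1.13 ± 0.12 under Dex (adjusted p = 2.36e-09, edgeR).

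Under Dex, the knockout differed from WT at 80 deep intragenic narrow peaks (0.186%), 24 higher and 56 lower in cKO, against a background of 0.17% of all tested peaks, 0.04% higher and 0.13% lower. This contrast and the Dex contrast in WT share the WT Dex libraries. The peaks lower in cKO included those of Cab39l (log2 -2.75 ± 0.27), Sae1 (-1.22 ± 0.13), Fam193a (-0.87 ± 0.10), Ift80 (-1.03 ± 0.12) and Rad51b (-1.09 ± 0.14), a gene of homologous recombination. Those higher in cKO included Kat6b (0.89 ± 0.17), Cd47 (1.01 ± 0.20) and Sorcs2 (1.02 ± 0.20), which had fallen with Dex in WT. The Kat6b difference was lost without WT Dex replicate 1 (adjusted p = 0.111, edgeR).

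A peak in Rbpj, the DNA-binding factor of Notch signalling (chr5:53624778-53625211), had 2.52, 5.30 and 2.95 CPM in WT with Dex and 7.52, 7.58 and 5.92 CPM in cKO with Dex. The control groups overlapped at 4.27 to 5.11 CPM in WT and 3.00 to 5.27 CPM in cKO. The log2 difference under Dex was 0.96 ± 0.21 (adjusted p = 0.0205, edgeR), and it was lost without WT Dex replicate 1 or 3 or cKO Dex replicate 1 or 2, with an adjusted p of 0.386 without WT Dex replicate 1. The count of 80 was 34 without WT Dex replicate 1, 47 without WT Dex replicate 2, 47 without cKO Dex replicate 1 and 48 without cKO Dex replicate 2. Peaks higher in cKO were 30.0% of the 80 calls, but 65.4% of calls with scaling by library totals, 54.7% with loess offsets and 78.5% with the share of counts in the strongest peaks as a covariate, so the direction of the genotype difference over these peaks depended on the scaling.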

How the data were processed

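The deposited table holds raw counts, whole numbers per peak and library, for the 12 libraries and was not normalised by the authors, per the file headers. Read processing on genome build mm10 used Genrich 0.6.1, featureCounts 2.1.1, deepTools 3.5.6, SAMtools 1.3, Picard 2.18.27, Bowtie2 2.3.5 and Trimmomatic 0.39, per the submitters' processing notes. The sources used here do not give read filters, a shift for the transposase cut, or whether samples were pooled for peak calling. Libraries had 16 PCR cycles and no molecular identifiers are named, so reads need not be independent molecules. Spread between samples of a group, which may be technical, is the only error the p-values measure.

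Weak peaks were removed with filterByExpr (minimum count 10, minimum total count 15) in edgeR 4.0.16 under R 4.3.3, and counts were scaled by TMM. All 12 libraries entered 1 robust quasi-likelihood fit with a coefficient for each group (8 residual degrees of freedom). Two-sided p-values were adjusted over 202587 tested peaks (Benjamini-Hochberg), and called means an adjusted p under 0.05. The SE is the absolute log2 change over the root of the F statistic. CPM values come from edgeR's cpm function with the TMM-scaled library size. The steps were tested on simulated data. Alternatives used other scalings, DESeq2 1.42.0, no filter, a replicate block, a concentration covariate and each library left out.

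Gene spans came from a RefSeq table of GRCm38.p6, in which 21631 protein-coding spans were used. No genome sequence was used, so the planned motif shares and sequences of peaks were replaced by those of the RefSeq start windows (250 bases before to 50 after a start). Named peaks were the 10 risen and 10 fallen with the smallest p for Dex in WT, up to 10 for each other contrast, the called peak with the smallest p of each listed gene, the 5 strongest peaks, and the genes with the most tested or with several called peaks. For Fkbp5, Nr3c1, Runx1, Ikzf1, Rora and Tox the peak with the smallest p was named whether called or not. The peaks, lists and rules were chosen with earlier results of these data known.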

Additional observations from a re-analysis of the deposited data

Results flagged for a closer look

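The effect of Dex differed between WT and cKO at 12 deep intragenic narrow peaks by a test of the difference itself (edgeR's quasi-likelihood interaction contrast with Benjamini-Hochberg adjustment), and in each the WT effect was the larger. This is 0.0279% of them, close to 0.0276% of all tested peaks. Over all tested peaks 55 of 56 calls had a positive difference, WT minus cKO, so the direction was not particular to these peaks. The difference of the log2 effects, WT minus cKO, was 3.49 in Cab39l, 2.78 in Nme7, 1.46 in Thada, 1.28 in Lrrc49 and 1.17 in Me1. It was 1.13 in Ift80, 1.11 in Col23a1, 1.04 in Myo16, 0.96 in Sae1, 0.86 in Fam193a, 0.75 in Lrp12 and 0.69 in Maml3.

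The cKO effect was not the same in all 12. On the log2 scale it was 0.69 ± 0.14 in Sae1 and 0.32 in each of Ift80, Maml3 and Myo16, but 0.08 ± 0.33 in Cab39l and -0.20 ± 0.35 in Nme7. Thada (chr17:84405611-84406358) measured 2.44, 3.10 and 2.89 CPM in WT without Dex and 8.26, 8.09 and 9.02 CPM in WT with Dex, against 2.64, 3.71 and 4.32 CPM in cKO without Dex and 4.07, 4.14 and 3.22 CPM in cKO with Dex. The call was lost in 4 of the 12 fits that left out a library for Me1, in 5 for Thada and Myo16, in 6 for Sae1, in 7 for Lrp12, in 9 for Lrrc49 and Maml3 and in 10 for Col23a1, with adjusted p up to 0.346 (Myo16, without cKO control replicate 3).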

How the results depend on the processing

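The count of deep intragenic narrow peaks called for Dex in WT was 269, with 262 under RLE size factors, 326 under DESeq2 and 244 without the filter. It was 425 with scaling by library totals (237 higher, 188 lower), 531 with loess offsets (319 higher, 212 lower) and 528 with the share of counts in the strongest peaks as a covariate (236 higher, 292 lower), and 137 to 367 with 1 library left out. For Dex in cKO the count of 1 was 0 with library totals, 3 under DESeq2 and 0 to 43 with 1 library left out. The 12 differences of the Dex effects became 24 with library totals, 37 with loess offsets and 48 with the covariate, and 4 to 30 with 1 library left out. For cKO against WT without Dex the count of 1 became 4 with library totals, 5 with loess offsets, 12 under DESeq2 and 2 without the filter, and 1 to 5 with 1 library left out. For cKO against WT under Dex the count of 80 became 211, 225 and 404 with library totals, loess offsets and the covariate, 136 under DESeq2, and 34 to 97 with 1 library left out.

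With the replicate number of the titles as a replicate block, the counts were 436 for Dex in WT, 2 for Dex in cKO, 22 for the difference, 8 for genotype without Dex and 197 for genotype under Dex. Same-numbered samples of different groups correlated between -0.188 and 0.258 in their deviations over 18 pairs, with 3 over 0.1. Differently numbered samples were not set beside them, so whether the numbers pair the samples was not settled.

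The share of tested peaks called for Dex in WT, 0.626%, was 0.579% with gene ends over 10 kb away, 0.638% with over 50 kb, and 0.541% with a width under 1000 bases. The one reversed value was the Lekr1 peak, 0.07 for Dex in WT and -0.054 with loess offsets. Of 150 named calls, 71 were kept under every alternative, 24 were lost under 1 to 3 and 55 under 4 or more. The causes were not tested, apart from fits with fewer samples. Depth limits the 19460 peaks under 1 CPM, where 11 were called.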

Other observations

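In 5 of the 35 genes with several called deep intragenic narrow peaks, Dex in WT raised one site and lowered another of the same gene. In Exoc6b, which encodes a subunit of the exocyst, chr6:84660898-84661543 changed by 0.99 ± 0.15 and chr6:85043280-85043570 by -1.24 ± 0.28 on the log2 scale. In Snx29, a sorting nexin gene, 1 peak rose (0.59 ± 0.13, chr16:11577071-11578535) between a pair that fell (-0.78 ± 0.18, chr16:11438270-11439116, and -0.91 ± 0.20, chr16:11717536-11718534). Jazf1 held changes of 0.64 ± 0.14 and -0.72 ± 0.18, the autophagy gene Uvrag 0.99 ± 0.25 and -1.79 ± 0.40, and Ankrd33b 1.06 ± 0.19 and -1.85 ± 0.47. In each of these genes at least 1 of the opposite calls was lost in some of the fits that left out a library, so that only the risen peaks of Exoc6b and Ankrd33b were called in all 12.

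Other genes had several risen peaks that differed in starting level. Neb held 2 further risen peaks beside the nearly closed one, chr2:52314632-52315410 with 21.4, 23.6 and 25.8 CPM in WT without Dex and 39.3, 45.8 and 36.3 CPM in WT with Dex, and chr2:52315664-52316369 with 5.42, 5.96 and 6.56 CPM and 10.7, 13.7 and 9.98 CPM. Their log2 changes in cKO were 0.18 ± 0.12 and -0.11 ± 0.16. In Rapgef6, which encodes an exchange factor of Rap GTPases, a pair of peaks changed by 2.39 ± 0.42 and 1.36 ± 0.27 in WT and by 0.41 ± 0.40 and 0.06 ± 0.28 in cKO, and the call of the second was lost without WT control replicate 2.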
